A study of Mus musculus with 2 samples.

Results

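Microglia with the highest share of ribosomal protein mRNA were chosen from single-cell counts of 2 libraries of sorted spinal cord microglia. A UMI is 1 captured mRNA molecule counted once, and barcodes were kept where over 300 genes had a UMI and mitochondrial genes took less than 5% of the UMIs. In each kept cell the ribosomal protein share was the percentage of UMIs that fell on 85 ribosomal protein genes. The members were the cells of at least 1200 UMIs among the 5% of all kept cells with the highest share, so that the share itself chose them. There were 79 members of 1592 kept cells, 47 of 1147 in the control library and 32 of 445 in the 4E-BP1–cKO library. They were set beside 424 kept cells of at least 1200 UMIs whose share was from 2.5% to under 8% (304 control, 120 4E-BP1–cKO), called comparison cells below.

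The control library came from Eif4ebp1fl/fl mice, which the labels and methods call WT, and the other library from Eif4ebp1fl/fl:TMEM119CreERT2 mice, in which Cre is made under the promoter of the microglial gene Tmem119. All were males of 8 to 10 weeks that had received 4-hydroxytamoxifen from postnatal day 4 to 9, and the number of mice behind each library is not named in the text of the study. The cells were freed from lumbar spinal cord with collagenase IV and mechanical dissociation, passed through a Percoll gradient and sorted by the gate CD45lo CD11Bhi CX3CR1hi, and the 3′ ends of their mRNAs were read. Before filtering there were 4914298 UMIs in 1216 control barcodes and 1769927 UMIs in 474 4E-BP1–cKO barcodes, of which 0 were common to both. With 1 library per genotype no difference between the genotypes has a replicate check, no p-value was computed, and each interval below is an exact 95% interval that covers counting error only.

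Microglia are the resident macrophages of the brain and spinal cord, known for clearing debris, for surveying the tissue with P2Y12 and CX3CR1, and for depending on the CSF1 receptor. Ribosomal proteins are made from a family of short, abundant mRNAs, most of which begin with a C followed by a run of pyrimidines, the 5′ terminal oligopyrimidine (TOP) motif. Translation of TOP mRNAs is governed by the kinase complex mTORC1, whose substrates include the 4E-BPs, repressors of cap-dependent translation, and LARP1. The counts below are of mRNA, and translation was not measured in these cells.

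The ribosomal protein share of the members ran from 12.8% to 39.2% in the control library, with a median of 16.2%, and from 12.9% to 35.0% in the 4E-BP1–cKO library, with a median of 14.8%. The comparison cells had medians of 4.94% and 5.19%. The shares were continuous at the limit, where the last 3 cells inside had 12.9%, 12.9% and 12.8% and the first 3 outside had 12.8%, 12.8% and 12.4%. Of the 79 members, 45 were above 15%, 15 above 20% and 6 above 30%, and 10 of the 15 cells above 20% held under 3000 UMIs. A share can be high because a cell holds more ribosomal protein mRNA or because it holds less of other mRNA, and counts of captured molecules cannot tell these apart.

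The members were not shallow cells as a group. Their median was 5604 UMIs and 2079 genes in the control library and 6215 UMIs and 2048.5 genes in the 4E-BP1–cKO library, beside 6383 UMIs and 2522.5 genes and 6118 UMIs and 2461 genes in the comparison cells. After each cell was thinned to 800 UMIs outside the ribosomal protein genes, medians of 549 and 547 genes were left in members and 578 and 571 in comparison cells. The mitochondrial share was higher in members, at medians of 1.95% and 1.55% beside 0.6% and 0.469%. Within the members the ribosomal protein share was lower in deeper cells, with a Spearman correlation of -0.47 over 47 control cells and -0.38 over 32 4E-BP1–cKO cells, in which both measures share the same UMI total.

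**Figure D1:**
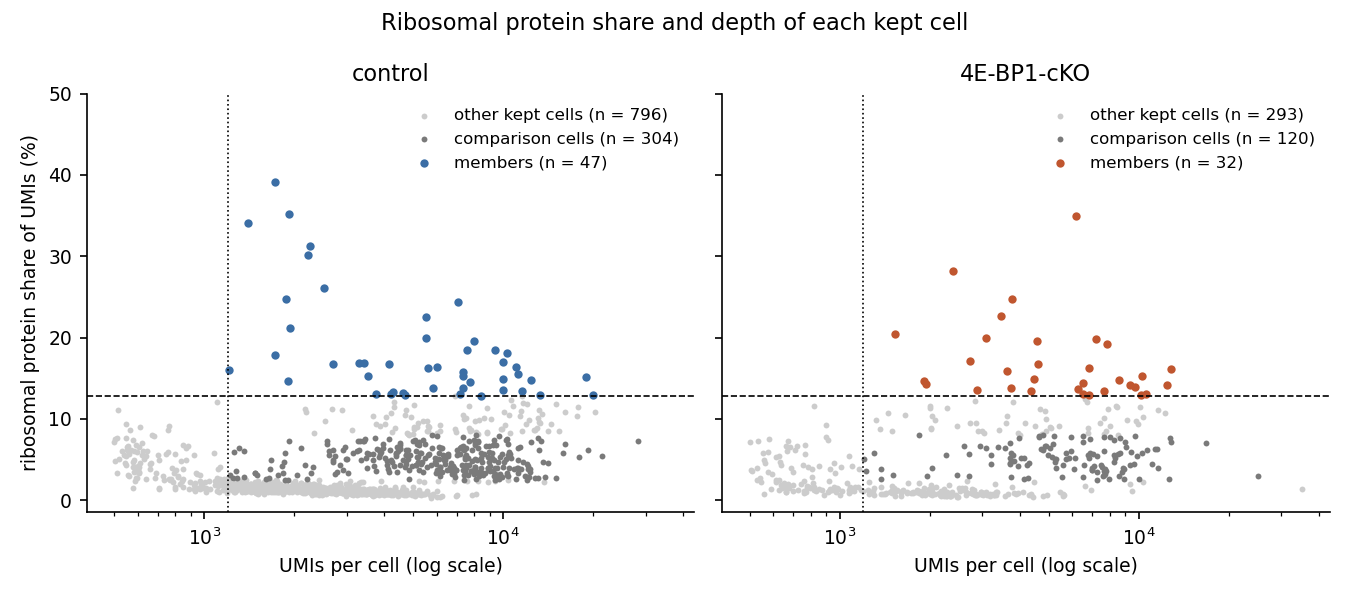
UMIs per kept cell (log scale) against the ribosomal protein share of its UMIs in percent, 1 panel per library, with 1 point per cell. The members lie above the dashed line at 12.8%, the dotted line marks 1200 UMIs, the 5 control cells above 30% hold under 3000 UMIs, and the 4E-BP1–cKO cell at 35.0% holds 6183.

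Most members carried the genes of microglia. Of 19 microglial identity genes, a control member had a median of 16 detected (6 to 19) and a 4E-BP1–cKO member a median of 15 (1 to 19), beside 17 in the comparison cells of each library. Csf1r, the CSF1 receptor, was detected in 47 of 47 control and 31 of 32 4E-BP1–cKO members.

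Of the 79 members 4 carried at least 3 markers of another cell type, 2 in each library. One cell of the 4E-BP1–cKO library held 6 Cd3e, 4 Trbc2, 1 Cd3d and 1 Trac UMIs, which are T cell genes, with 0 Csf1r UMIs and 1 of the 19 identity genes. Another held 3 Ms4a7, 3 F13a1, 1 Mrc1 and 1 Cbr2 UMIs, which are genes of border-associated macrophages, with 81 Apoe UMIs and 7 identity genes. These 2 cells held all 12 UMIs of the 9-gene T and NK cell list and all 8 UMIs of the 8-gene border-associated macrophage list among the members. In the 47 control members both lists stood at 0 UMIs, which by a limit of 3 UMIs allows up to 11.8 per 1000000 UMIs outside the ribosomal protein genes (CPM). The 2 control cells with at least 3 markers of another type had 13255 and 19942 UMIs and 16 and 17 identity genes. Their markers were those of oligodendrocytes in 1 cell and of endothelial cells and pericytes in the other.

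The astrocyte list had 32 UMIs in control members and 6 in 4E-BP1–cKO members, 126 and 36.7 CPM beside 117 and 67.1 in comparison cells, and 28 of the 32 were Slc1a3. Of the 7 genes of that list Aqp4, Gja1 and Clu were at 0 in the members of both libraries, and Gja1 and Clu in all comparison cells too. Gfap, another astrocyte gene, was at 0 in control members. It was detected in 4E-BP1–cKO members, where the most abundant gene of the list, Slc1a3, had 3 UMIs. The oligodendrocyte list stood at 118 and 104 CPM in members beside 87.5 and 222 in comparison cells. The monocyte list had 3 and 2 UMIs, the neuron list 1 and 0, and the erythrocyte list 2 and 2, and the neutrophil list was nearly all Csf3r, with 70 of 70 and 35 of 37 UMIs. The B cell list was nearly all Ighm, 44 of 46 and 24 of 26 UMIs. The endothelial and pericyte list stood at 240.2 and 318 CPM in members beside 335.5 and 201 in comparison cells, and 48 of its 61 and 33 of its 52 UMIs were Bsg. Pecam1 had 9 and 14 UMIs in members, at 35.4 CPM beside 36.8 in the control and 85.7 beside 20.5 in the 4E-BP1–cKO library. Flt1 had 3 and 5 UMIs, at 11.8 CPM beside 35.8 and 30.6 beside 1.37. Cldn5, Ly6c1, Rgs5 and Vtn were at 0 in both, and the part of such cells in the results was not tested. Doublets called by Scrublet numbered 15 of 1690 barcodes, 11 of them in the 4E-BP1–cKO library. None was a member, and 1 control and 10 4E-BP1–cKO comparison cells were among them.

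To ask what else differed in these cells, UMIs were summed over the members and over the comparison cells of each library and expressed as CPM. This kept the chosen genes out of the total. Ratios are log2(CPM + 10) differences of members minus comparison cells, so 1 on this scale is a 2-fold difference and the change of scarce genes is understated. Genes outside the ribosomal protein set with at least 200 UMIs over the 4 sums were compared, 2936 in all, and a gene was called higher or lower when it passed 1.5-fold the same way in both libraries. By this rule 206 genes were higher (7.02% of those compared) and 439 were lower (15.0%). The median of all 2936 genes was -0.22 in the control and -0.20 in the 4E-BP1–cKO library, so a gene at 0 lay above the middle of the distribution. Where CPM was taken over all UMIs, both medians fell by 0.16 and 138 genes were higher and 674 lower, 17.0% of the calls being higher in place of 31.9%.

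The signs of the ratios were shared by the 2 libraries for 76.8% of the genes. The higher genes were led by Apoe in both libraries, followed by the chemokine gene Cxcl2, by Fau and by Bcl2a1d. The lower genes were led by Gm16337, Bank1 and Hspb1. The 12 highest and 8 lowest by the smaller of their 2 ratios are described below with the 4 marker genes and the gene lists.

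**Figure D2:**
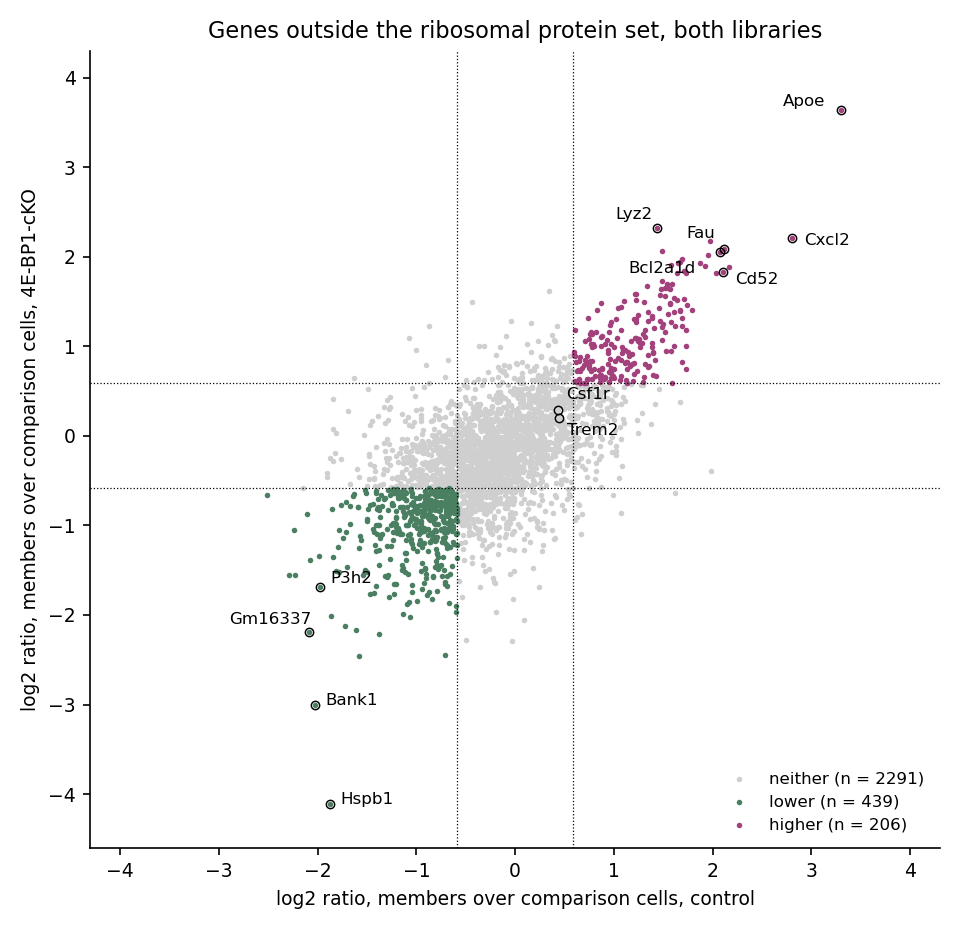
Each point is 1 of the 2936 genes, with the log2 ratio of members over comparison cells in the control library on the x axis and in the 4E-BP1–cKO library on the y axis. Dotted lines mark 1.5-fold. The 206 genes called higher lie at the upper right with Apoe farthest out, and the 439 called lower at the lower left.

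Apoe (ENSMUSG00000002985) encodes apolipoprotein E, a lipid carrier that microglia raise in damaged tissue (chr7:19696244-19701310, GRCm38.p6). The 47 control members held 1310 Apoe UMIs, 5158 CPM, and the 304 control comparison cells 1006 UMIs, 514 CPM. In the 4E-BP1–cKO library 32 members held 1181 UMIs, 7232 CPM, and 120 comparison cells 418 UMIs, 572 CPM. The log2 ratios were 3.30 (3.21 to 3.45) and 3.64 (3.50 to 3.82), or 9.85-fold and 12.4-fold.

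Apoe was uneven among the members. Per 10000 UMIs outside the ribosomal protein genes its lowest, median and highest values were 0, 6.71 and 360 in control members and 0, 14.9 and 662 in 4E-BP1–cKO members, beside medians of 0.896 and 0 in comparison cells. At least 50 Apoe UMIs were held by 9 members of each library, and the 5 cells with the most held 64.7% and 59.4% of the Apoe UMIs of all members. The groups overlapped, since members without Apoe and comparison cells with up to 191 UMIs were both present. With every cell thinned to the same 800 UMIs, Apoe was detected in 48.9% (34.1 to 63.9) of control and 59.4% (40.6 to 76.3) of 4E-BP1–cKO members and in 16.8% (12.8 to 21.5) and 19.2% (12.6 to 27.4) of comparison cells. Without thinning these shares were 63.8%, 78.1%, 51.0% and 48.3%. Mbp, an oligodendrocyte gene that microglia should lack, was found after thinning in 4.26% and 3.13% of members and 3.29% and 3.33% of comparison cells, and Aqp4 in 0 of 79 and 0 of 424. Without the 4 members that carried 3 or more markers of another cell type, the Apoe ratios were 3.25 and 3.57.

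Lyz2, the lysozyme gene of macrophages (chr10:117277541-117282272, GRCm38.p6), was the other marker called higher. Control members held 96 UMIs, 378 CPM, beside 133 CPM in comparison cells, and 4E-BP1–cKO members held 124 UMIs, 759 CPM, beside 144 CPM. The log2 ratios were 1.44 (1.15 to 1.84) and 2.32 (2.01 to 2.79). Most members held few Lyz2 UMIs, at a median of 1 in each library and a highest value of 19 and 36, and in the 4E-BP1–cKO library 5 cells held 65.3% of them.

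Trem2, a lipid-sensing receptor of microglia (chr17:48346401-48352276, GRCm38.p6), had 332 UMIs in control and 190 in 4E-BP1–cKO members. Its level was 1307 CPM beside 959 and 1164 CPM beside 1012 in comparison cells, with log2 ratios of 0.44 (0.27 to 0.62) and 0.20 (-0.04 to 0.43). Csf1r had 528 and 290 UMIs, 2079 CPM beside 1539 and 1776 CPM beside 1450, with ratios of 0.43 (0.30 to 0.57) and 0.29 (0.10 to 0.48). Neither passed 1.5-fold in either library. Per 10000 UMIs outside the ribosomal protein genes, Trem2 had medians of 13.1 and 11.6 in members beside 9.05 and 8.57 in comparison cells, and Csf1r 20 and 17.1 beside 14.5 and 14.2, with wide overlap of single cells.

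**Figure D3:**
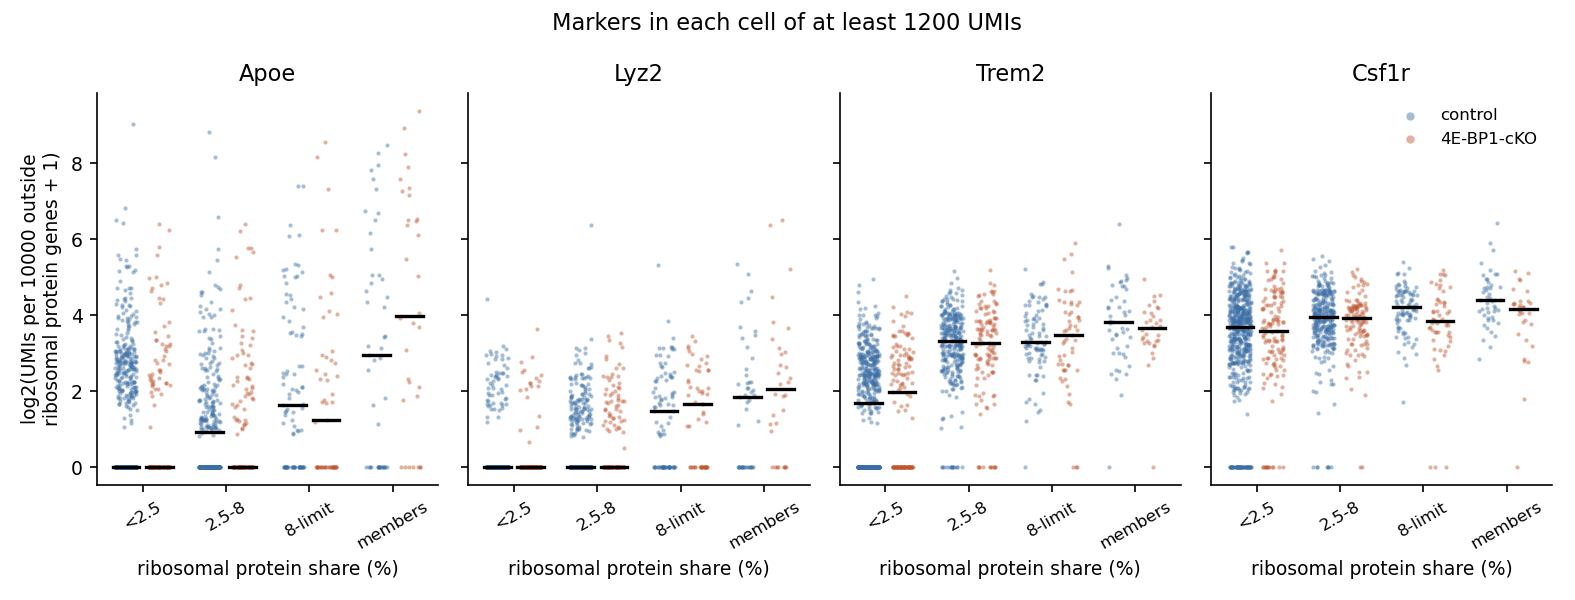
Level of Apoe, Lyz2, Trem2 and Csf1r in each cell of at least 1200 UMIs, as log2 of UMIs per 10000 outside the ribosomal protein genes plus 1, by ribosomal protein share and library. Each point is 1 cell and the bars are medians. The medians of all 4 genes stand higher in members than in comparison cells of the same library, most of all for Apoe and Lyz2, and single cells overlap widely.

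Among cells of at least 1200 UMIs, the 4 markers differed in where they changed along the ribosomal protein share. In the control library Apoe stood at 527 CPM in cells under 2.5%, 514 in comparison cells, 1532 in the 89 cells between 8% and the limit and 5158 in members. The same order in the 4E-BP1–cKO library was 580, 572, 2804 and 7232 CPM, and the intervals of the lower pair of bands overlapped in both libraries. Of the 718 Apoe UMIs behind the 2804 CPM 337 lay in 1 of 55 cells, and without it, a step chosen after seeing the data, the level was 1542 CPM. Lyz2 was higher at every step, from 41.1 to 378 CPM and from 55.0 to 759 CPM, with overlapping intervals at the last step in the control library. Trem2 stood at 324 and 342 CPM under 2.5% and between 959 and 1307 CPM in all other bands, so that most of its difference lay at the lower end. Csf1r went from 1304 to 2079 CPM and from 1257 to 1776 CPM.

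Among the members themselves, Apoe and Lyz2 tended to be high in the same cells, with a Spearman correlation of 0.45 over 47 control and 0.41 over 32 4E-BP1–cKO members. Apoe and the ribosomal protein share correlated at 0.10 and 0.27. Apoe and P2ry12, a homeostatic purinergic receptor, correlated at -0.14 and -0.52, the latter over 32 cells that included the T cell gene and border-associated macrophage gene cells. These correlations are across cells of 1 library each and describe those cells.

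The 85 ribosomal protein genes are the chosen measure and are given as a description. In the summed counts they held 16.3% of control and 16.2% of 4E-BP1–cKO members' UMIs, beside 4.94% and 5.14% in comparison cells. All 80 of them with at least 200 UMIs stood higher in members, by log2 ratios of 1.18 to 2.20 (median 1.88) in the control and 0.97 to 2.13 (median 1.82) in the 4E-BP1–cKO library. The 5 with the most UMIs were Rps29, Rplp1, Rps21, Rps12 and Rps24.

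The make-up of the ribosomal protein mRNAs was close to that of the comparison cells. When each gene was taken as a share of the ribosomal protein UMIs, 59 of 80 genes differed by less than 0.25 on the log2 scale in both libraries. Of these 80, Rps28 had the largest gain by the mean of the 2 libraries. It went from 1.84% to 2.21% of these UMIs in control and from 1.76% to 2.10% in 4E-BP1–cKO cells. Its log2 ratios were 0.26 and 0.25, and Rps26 and Rpl37a followed. The largest losses among the 80 were in Rpl36al, with log2 ratios of -0.48 (-0.78 to -0.18) and -0.83 (-1.27 to -0.41). Next were Rpl22l1, a paralog of Rpl22, with -0.68 and -0.46, and Rpl7a, with -0.44 and -0.53. For 5 of the 80 genes the intervals of both libraries lay above 0, and for 7 below 0. Rpl7l1, outside the 80 with 187 UMIs, was lower still, at -2.08 (-3.03 to -1.25) and -1.56 (-2.56 to -0.65).

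Genes tied to the ribosome that the choice of members had not used were higher too. Fau, whose product is cleaved into a ubiquitin-like protein and ribosomal protein S30, had 1700 UMIs in control members, 6694 CPM beside 1542, and 1213 in 4E-BP1–cKO members, 7428 CPM beside 1739. Its log2 ratios were 2.11 (2.03 to 2.20) and 2.09 (1.98 to 2.21), and its lowest members held 37.2 and 43.9 UMIs per 10000, above the upper quartiles of 20.7 and 23.6 in comparison cells. Rack1, a scaffold on the small subunit, had ratios of 1.79 (1.61 to 2.05) and 1.41 (1.14 to 1.72). Gm10076 had ratios of 1.96 and 2.02, and 98 bases at the end of its transcript were identical to Rpl41, so its reads and those of Rpl41 may be shared.

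The annotated start sites of these genes bear on the TOP motif, and 6 are shown from 10 bases before to 20 bases from the start, with the transcribed part in capitals. The windows are from RefSeq on GRCm38.p6, the assembly named mm10 in the files, and are written on the strand of the gene. They are those of the most abundant translation factor genes, of Rack1, and of the first higher genes that the table of start sites held.
Rack1 (chr11:48800350-48800379, plus strand): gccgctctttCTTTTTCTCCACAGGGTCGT
Fau (chr19:6057937-6057966, plus strand): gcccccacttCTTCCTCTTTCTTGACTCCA
Tpt1 (chr14:75845246-75845275, plus strand): cgctgacgacAGTTCCGGGGGAGCCGCGGA
Eef1a1 (chr9:78481705-78481734, minus strand): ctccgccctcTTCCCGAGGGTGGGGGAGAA
Apoe (chr7:19699169-19699198, minus strand): actccacctcTTTCCTCTGCCCTGCTGTGA
Cxcl2 (chr5:90903889-90903918, plus strand): cctccaacaaGCTTCCTCGGGCACTCCAGA
Rack1 and Fau began with a C followed by at least 4 bases that were each C or T, and the other 4 annotated starts did not. RefSeq lists 3 starts for Apoe, of which 1 is shown. An annotated start can lie some bases away from the one a cell uses, so a missing match says only that these letters were not at this position.

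This start, searched on the strand of the gene and only at the annotated first base, was found in 14 of 65 ribosomal protein genes with a start in the table (21.5%). It was found in 11 of 158 higher genes (6.96%), 9 of 340 lower genes (2.65%), 74 of 2333 compared genes (3.17%) and 813 of all 27025 genes in the table (3.01%). The 11 higher genes were Gas5, Snhg8, Eif3f, Rgs10, Use1, Atp5d, Nap1l1, Rack1, Rtraf, Atp5g2 and Fau.

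Translation factors were higher as well. Of 36 genes in the list 27 could be compared, and 15 were higher, 0 lower and 12 neither, with a median log2 ratio of 0.95 and 0.89 beside -0.22 and -0.20 over all genes. In the control library the list summed to 8758 CPM in comparison cells, 14374 between 8% and the limit and 19720 in members. In the 4E-BP1–cKO library these sums were 9727, 14334 and 19981 CPM. Tpt1, the translationally controlled tumor protein, stood at 5044 CPM beside 1643 in control cells and 5291 beside 1811 in 4E-BP1–cKO cells, with ratios of 1.61 (1.52 to 1.71) and 1.54 (1.42 to 1.67). Eef1a1, which brings aminoacyl-tRNA to the ribosome, stood at 4521 beside 1598 CPM and 4384 beside 1836 CPM, with ratios of 1.49 (1.40 to 1.598) and 1.25 (1.12 to 1.39). The other higher genes were those of the elongation factors Eef1b2, Eef1d, Eef1g and Eef2, with Pabpc1, Eif5a, Naca, Btf3 and the eIF3 subunits Eif3e, Eif3f, Eif3h, Eif3k and Eif3m. Eif1, an initiation factor of the small subunit, was at 0.75 and 0.42 and did not pass in both libraries.

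The genes that make ribosomes were less uniform. Of 7 ribosome biogenesis genes compared (medians 0.48 and 0.19) 2 were higher, Npm1, a nucleolar chaperone (1.25 and 1.09), and Nop58, a box C/D protein (0.88 and 0.75), and Ncl, nucleolin, was at 0.27 and 0.19. Of 5 hosts of small nucleolar RNAs (medians 0.14 and 0.61) 2 were higher, Gas5 (0.88 and 1.12) and Snhg8 (0.61 and 0.61), both transcripts whose introns hold such RNAs, and Zfas1 was at 0.07 and 0.83. The 21 splicing factors compared had 0 higher and 0 lower, with medians of -0.10 and -0.08.

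The 4E-BPs and the mTORC1 pathway were sparsely counted. Of 17 genes 6 could be compared, with medians of 0.08 and -0.73, and Lamtor4, a lysosomal anchor of mTORC1, was higher (0.997 and 0.74) and Rps6kb1, the S6 kinase 1 gene, lower (-1.38 and -1.44, from 7 and 4 UMIs in members). Rptor, the substrate-binding subunit of mTORC1, was at -0.22 and -0.69, Larp1 at -0.48 and -0.23 and Rheb, the GTPase that activates mTORC1, at 0.39 and -1.15. Eif4ebp1 had 8 and 6 UMIs in members and 50 and 24 in comparison cells, too few to be compared by the rule, at 31.5 CPM beside 25.6 and 36.7 beside 32.9.

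Genes of the respiratory chain were higher too. Of 34 nuclear genes of oxidative phosphorylation compared, 28 were higher and 0 lower, with medians of 1.31 and 1.01. Cox4i1, a subunit of cytochrome c oxidase, had ratios of 1.69 (1.47 to 2.0) and 1.32 (0.98 to 1.73), Cox7c 1.40 and 0.94, and Cox8a 1.49 and 1.73. Atp5mpl, a small protein of the ATP synthase, had 63 and 39 UMIs in members and ratios of 1.97 (1.68 to 2.61) and 2.17 (1.70 to 3.12). All 12 mitochondrially encoded genes compared were higher, with medians of 1.61 and 1.75, among them mt-Cytb at 1.73 (1.61 to 1.87) and 1.82 (1.63 to 2.04), mt-Co3 at 1.65 and 1.93, mt-Co1 at 1.57 and 1.64 and mt-Atp6 at 1.64 and 1.82. The summed level of the 13 genes of the list went in the order 11988, 7691, 16247 and 24040 CPM over the 4 bands of the control library, from the lowest ribosomal protein share to the members, and was therefore lowest in the comparison cells. Cells of 5% mitochondrial UMIs or more had been left out beforehand.

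Among the other leading genes, Snrpg, a core protein of the splicing snRNPs, had ratios of 1.93 and 1.90, Pfdn5, a subunit of the prefoldin chaperone, 1.88 and 1.93, and Nme2, a nucleoside diphosphate kinase, 2.04 and 1.82. The last 300 bases of Pfdn5 were identical to sequence of Myg1, and parts of the end of Atp5mpl matched 14 other genes, so the counts of both are uncertain. The 206 higher genes had a median transcript length of 1180 bases (quartiles 745 and 1714, GENCODE vM39 matched by gene ID), beside 3806 bases in the 434 lower genes with a value and 3065 in all compared genes. The span of the gene on GRCm38.p6 had medians of 5937, 100754 and 44650 bases. Counting of intron reads was not given in the sources used here, and the part of gene length in these ratios was not tested.

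**Figure D4:**
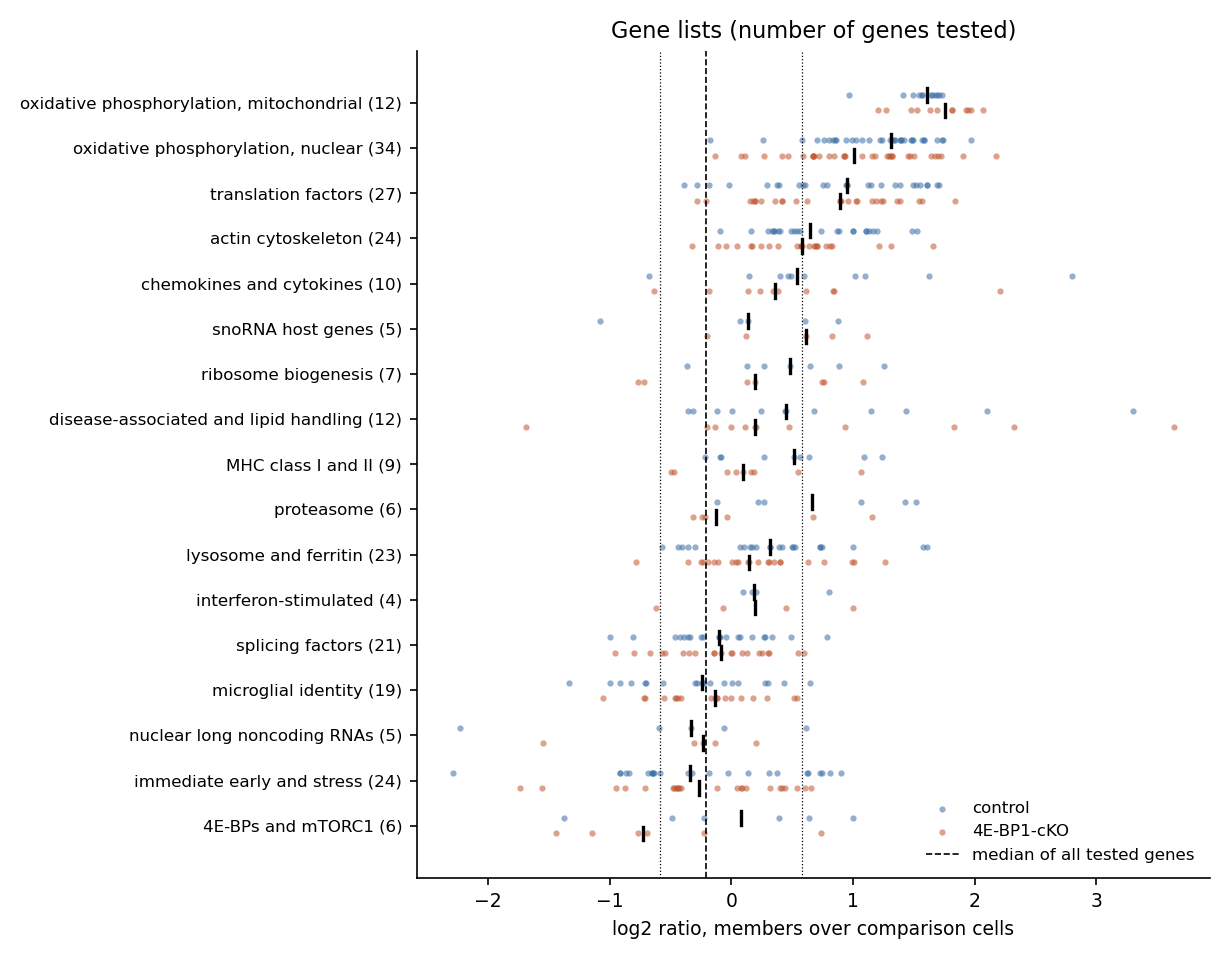
Log2 ratio of members over comparison cells for each compared gene of 17 lists, control above and 4E-BP1–cKO below in each row, with the median as a bar. Numbers after the names are genes compared, dotted lines mark 1.5-fold and the dashed line is the median of all 2936 genes. Oxidative phosphorylation and translation factor genes lie farthest to the right, and splicing factor and microglial identity genes near the dashed line.

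Of 19 microglial identity genes compared, 0 were higher, 16 were neither, and 3 were lower, with medians of -0.24 and -0.13 that lay near those of all genes. Cx3cr1, the fractalkine receptor, was at -0.17 and -0.12, and Mef2c, a transcription factor of microglia, at -0.82 and -0.46. The 3 lower genes were Mertk, a receptor for apoptotic cells (-1.33 and -0.71), the purinergic receptor gene P2ry13 (-0.91 and -1.05), and Sall1, a transcription factor (-0.70 and -0.72).

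Of 12 disease-associated and lipid-handling genes compared, 4 were higher and 0 lower, with medians of 0.45 and 0.20. They were Apoe, Lyz2, Tyrobp, the signalling partner of TREM2 (1.15 and 0.93), and Cd52, a small surface glycoprotein of leukocytes, with 219 and 122 UMIs and ratios of 2.10 (1.91 to 2.40) and 1.83 (1.52 to 2.24). Apoe, Lyz2 and Trem2 of this list are also 3 of the 4 markers given for these cells. Cd83 was at -0.12 and 0.11.

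Of 23 lysosomal and ferritin genes (medians 0.32 and 0.14) 5 were higher, Cst3, cystatin C (0.75 and 0.76), Ctss, cathepsin S (0.73 and 0.63), Fth1, ferritin heavy chain (1.58 and 1.27), Cd63 (1.61 and 1.01) and Npc2 (1.002 and 0.993), and 0 were lower. Cst3 alone stood at 35948 CPM beside 21371 and 39710 beside 23435, and its ratios had intervals of 0.72 to 0.78 and 0.72 to 0.80. Of 24 actin cytoskeleton genes (medians 0.65 and 0.58) 9 were higher and 0 lower, among them Tmsb4x, thymosin beta 4 (1.48 and 1.21), and Actb (1.11 and 0.81), while Actg1 was at 0.49 and 0.16. Of 6 proteasome genes Psme1 and Psmb1 were higher and 0 lower, with medians of 0.67 and -0.12.

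Immune response genes were mixed. Of 9 MHC class I and II genes (medians 0.52 and 0.09) 1 was higher, Psmb8, an immunoproteasome subunit (1.24 and 1.06), and B2m was at 0.64 and 0.55, H2-D1 at 0.56 and -0.04 and H2-K1 at 0.27 and -0.47. Of 4 interferon-stimulated genes compared (medians 0.19 and 0.19) Bst2, tetherin, was higher (0.80 and 1.0005), and Ly6e, Cxcl10 and Trim30a were not called. Of 3 cell cycle list genes compared Tubb5, a tubulin, was higher (1.20 and 1.31), H2afz, a histone variant, was at 0.89 and 0.51, and Pcna, the DNA polymerase clamp, at -0.59 and -0.50. All 14 genes of that list summed to 898 CPM beside 657 and 980 beside 674. At least 3 of them were detected in 16 of 47 and 19 of 32 members, beside 87 of 304 and 39 of 120 comparison cells, and Mki67 and Rrm2 had 0 UMIs in all members.

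Of 10 chemokine and cytokine genes 2 were higher and 0 lower, with medians of 0.54 and 0.36. Cxcl2, which attracts neutrophils, had 235 UMIs in control members, 925 CPM beside 124, and 176 in 4E-BP1–cKO members, 1078 CPM beside 226, with ratios of 2.80 (2.63 to 3.16) and 2.21 (1.94 to 2.57). It was carried by few cells, since 16 of 47 and 10 of 32 members had any and the 5 highest held 78.7% and 90.3% of its UMIs. Against the cells between 8% and the limit its ratio was 1.03 in the control and -0.03 in the 4E-BP1–cKO library. Tnf was at 1.01 and 0.84, and Ccl4, the most abundant of the list, at 0.60 and 0.23. Bcl2a1d, an anti-apoptotic gene, had ratios of 2.08 and 2.05, but the ends of Bcl2a1a and Bcl2a1b are 99.3% identical to it over 300 bases, so its reads may be theirs.

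Immediate early and stress genes, which dissociation is known to raise, did not rise together. Of 24 compared (medians -0.34 and -0.27), 2 were higher, Ier2 (0.91 and 0.66) and Dnajb1 (0.63 and 0.61), and 5 were lower, Rgs1 (-2.29 and -1.56), Hspa1a (-0.87 and -1.74), Hspa1b (-0.59 and -0.95), Klf6 (-0.69 and -0.87) and Btg2 (-0.65 and -0.71). Jun was at -0.64 and -0.46, Fos at -0.32 and 0.08 and Junb at 0.75 and 0.40.

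The 8 leading lower genes had few UMIs in members. Gm16337 had 15 and 4 UMIs in members and 555 and 108 in comparison cells, with ratios of -2.09 (-3.11 to -1.53) and -2.19 (-4.50 to -1.20), and its level fell along the whole range of ribosomal protein shares, from 780 to 59.1 CPM and from 580 to 24.5 CPM. Bank1, a scaffold of B cell receptor signalling that microglia also express, had 4 and 1 UMIs beside 185 and 87, with ratios of -2.02 (-4.48 to -1.21) and -3.001 (-9.60 to -1.77). Hspb1, a small heat shock protein, had 6 UMIs beside 222 in control cells and 0 beside 119 in 4E-BP1–cKO cells. In the latter the exact 95% interval of the log2 ratio reaches up to -2.83. Lcorl, a nuclear ligand-dependent corepressor family gene, had 32 and 15 UMIs beside 794 and 328 and ratios of -1.61 (-2.25 to -1.18) and -2.17 (-3.14 to -1.55). P3h2, a prolyl hydroxylase of collagen, was at -1.97 and -1.69, E330020D12Rik at -1.87 and -2.01, Sncaip, a synuclein partner, at -1.72 and -2.12 and Cables1 at -1.58 and -2.46. Of 5 nuclear long noncoding RNAs compared (medians -0.33 and -0.23) Gm35188 was lower (-2.23 and -1.55), Malat1 was at -0.59 and -0.30, Neat1 at -0.06 and -0.23, and Gm42418, which overlaps ribosomal RNA sequence, at 0.62 and 0.20.

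The members fell into 2 sets by Malat1, an abundant RNA that stays in the nucleus. Of the 79 members 12 held at most 4 Malat1 UMIs, and the other 67 held 42 or more. These 12 were 10 of 47 control members, 21.3% (10.7 to 35.7), and 2 of 32 4E-BP1–cKO members, 6.25% (0.766 to 20.8). Among cells of at least 1200 UMIs, 3 of 424 comparison cells held under 10 Malat1 UMIs. The counts were 0 of 144 between 8% and the limit and 0 of 702 under 2.5%. The limit of 10 UMIs was set after the values were seen.

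The 12 cells were shallow and extreme. They held 1207 to 2515 UMIs, beside 1910 to 19942 in the other members, and their ribosomal protein share ran from 16% to 39.2% with a median of 27.1%, beside 14.9%. All still carried 6 to 14 of the 19 identity genes, and Csf1r and Trem2 were detected in 12 of 12. One of them was the 4E-BP1–cKO cell with border-associated macrophage genes.

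**Figure D5:**
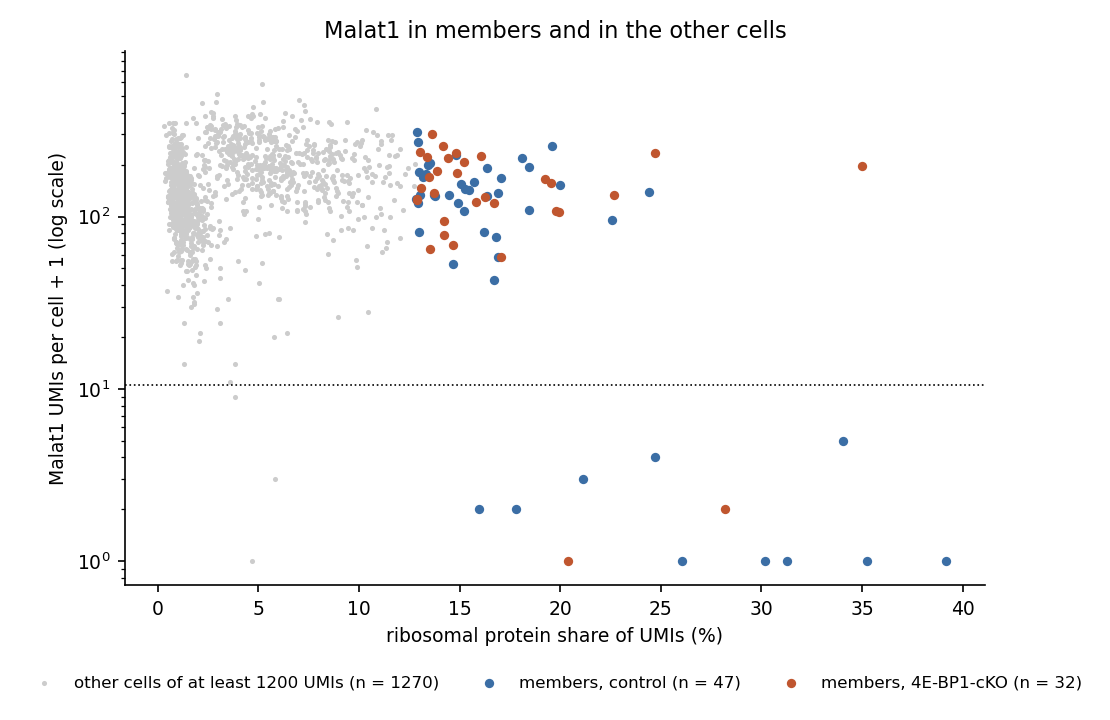
Malat1 UMIs per cell plus 1 (log scale) against the ribosomal protein share in percent, for cells of at least 1200 UMIs. The dotted line separates cells under 10 Malat1 UMIs. There are 12 members below it, with no member between 4 and 42 UMIs.

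Summed over the 12 cells, genes of several lists stood higher, myeloid genes among them, and immediate early and chemokine genes lower, than in the other members. On the same log2 scale, against the other 67 members, Lyz2 was at 1.97 (1.40 to 2.55), Ctss at 1.502 (1.33 to 1.68), Tmsb4x at 1.33, C1qa, a complement gene, at 1.31, Trem2 at 1.29 and Apoe at 1.04 (0.82 to 1.25). The cell with border-associated macrophage genes held 81 of the 194 Apoe and 10 of the 31 Lyz2 UMIs of the 12. Without it Apoe was at 0.37 (0.08 to 0.64) and Lyz2 at 1.52 (0.82 to 2.20), while Trem2 was at 1.37 and Ctss at 1.604. Apoe was detected in 7 of the 12 cells and 48 of the 67. The 24 immediate early and stress genes summed to 7940 CPM beside 34120, a log2 ratio of -2.10 (-2.36 to -1.86), and the 14 chemokine and cytokine genes to 2606 beside 12616, -2.27 (-2.74 to -1.84). Other list sums were higher, with nuclear oxidative phosphorylation at 1.14, actin cytoskeleton at 0.99, translation factors at 0.80 and microglial identity at 0.51. Splicing factors were at -0.40, small nucleolar RNA hosts at -0.23, nuclear long noncoding RNAs at -0.17 and ribosome biogenesis at -0.01. Atf3, a stress transcription factor, Nfkb1 and Cxcl2 had 0 UMIs in these 12 cells, which allows up to 182 CPM, beside 1707, 1145 and 1026 CPM in the other members. Cx3cr1 was at -0.87 (-1.54 to -0.28) and Gm42418 at 1.74. Without the 12 cells 194 genes were higher and 405 lower in members, of which 185 and 396 were among the 206 and 439 above, and the Apoe ratios were 3.28 and 3.52. These sums pooled both libraries, with 10 control and 2 4E-BP1–cKO cells in the 12 and 37 and 30 in the other 67. This mix of libraries, depth and the mitochondrial share, at medians of 2.72% in the 12 cells and 1.68% in the others, moved with the split, and their part in it was not tested.

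Between the libraries, members made up 4.10% (3.03 to 5.41) of control and 7.19% (4.97 to 10.0) of 4E-BP1–cKO cells, the latter share being 1.75 times the former. Among cells of at least 1200 UMIs the shares were 4.67% (3.45 to 6.16) and 9.36% (6.49 to 13). The other bands held only cells of at least 1200 UMIs and are given as shares of all kept cells. The cells between 8% and the limit went the same way as the members, at 7.76% (6.28 to 9.46) and 12.4% (9.45 to 15.8). Those under 2.5% were 49.4% (46.5 to 52.4) and 30.3% (26.1 to 34.8). Kept cells under 1200 UMIs had median ribosomal protein shares of 3.32% and 2.09% and were counted in neither band. The libraries also differed in depth, since 12.2% of control and 23.1% of 4E-BP1–cKO cells were under 1200 UMIs, and genotype and library cannot be told apart.

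The deletion itself could not be read from these counts. Eif4ebp1 had 8 UMIs in control and 6 in 4E-BP1–cKO members, a log2 ratio of 0.17 (-1.58 to 1.94), and 50 and 24 UMIs in comparison cells, 0.27 (-0.40 to 1.09). The conditional allele of the study carries exon 2, and reads from the 3′ end need not fall on it. Tmem119, whose promoter drives Cre, had 136 UMIs in 47 control members and 20 in 32 4E-BP1–cKO members, a ratio of -2.04 (-2.88 to -1.45), and comparison cells differed likewise, at -1.54 (-1.86 to -1.33).

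Within the members 1563 genes with at least 50 UMIs were compared between the libraries, as 4E-BP1–cKO over control, and 18 were over 2-fold higher (1.15%) and 31 over 2-fold lower (1.98%). The median of all 1563 was -0.03. Of the 18 higher genes 13 were also above 0 in the comparison cells, 1 of them past 2-fold, and of the 31 lower genes 17 were below 0 there and 5 past 2-fold.

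The largest increases were in Ccl2, Ptgs2, Arhgap15, Klf12 and Mir155hg. Ccl2, which attracts monocytes, had 57 UMIs in 15 of 47 control and 150 UMIs in 20 of 32 4E-BP1–cKO members, with a ratio of 1.99 (1.58 to 2.499) beside 0.46 (0.29 to 0.66) in comparison cells. Ptgs2, the inducible cyclooxygenase, was at 1.70 (0.95 to 2.84) beside 0.76, from 15 and 35 UMIs, and Mir155hg, the host transcript of miR-155, at 1.37 (0.77 to 2.12) beside 1.01. Arhgap15, a Rac GTPase-activating protein, was at 1.6 (1.03 to 2.36) and Klf12, a transcription repressor, at 1.41 (0.82 to 2.18), beside -0.36 and -0.22. Of the 62 Arhgap15 UMIs in 4E-BP1–cKO members 15 lay in 1 cell, and without the members carrying 3 markers of another cell type its ratio was 1.09. With every cell thinned to 800 UMIs Ccl2 was at 1.29 and Klf12 at 0.93, below 2-fold.

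The largest decreases were in Rnaset2b, an RNase T2 gene (46 and 5 UMIs), at -2.23 (-4.25 to -1.24), Setdb2, a histone methyltransferase gene, at -2.21 (-3.59 to -1.40), Tmem119, Ccdc152 at -1.97 (-3.76 to -1.002) and the heat shock gene Hspa1b at -1.75 (-2.22 to -1.37). In comparison cells the same genes were at -1.16, 0.17, -1.54, -1.36 and -1.39, so that Setdb2 was the one without a like difference there. With every cell thinned to 800 UMIs Rnaset2b was at -1.501 in members, Setdb2 and Ccdc152 at -1.15 each, Tmem119 at -0.994 and Hspa1b at -1.39. Setdb2 had 74 UMIs in 10 of 47 control members, 22 of them in 1 cell, and 9 UMIs in 3 of 32 4E-BP1–cKO members.

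None of the 4 markers was over 2-fold apart between the libraries with all members, and Lyz2 was at 1.35, past 2-fold, without the 5 deepest. Apoe was 0.49 (0.37 to 0.60) and Lyz2 0.99 (0.61 to 1.41) higher in 4E-BP1–cKO members, Trem2 was at -0.17 (-0.43 to 0.09) and Csf1r at -0.23 (-0.44 to -0.02), and in comparison cells these were at 0.15, 0.10, 0.08 and -0.09. Among the lists, 0 of 26 translation factors, 0 of 34 nuclear oxidative phosphorylation genes and 0 of 24 immediate early and stress genes were higher, and the last list had 2 lower, Hspa1a and Hspa1b. Of 10 chemokine and cytokine genes 2 were higher, Ccl2 and Ccl12 (1.05), and 1, Il1b, lower. Of 13 mitochondrially encoded genes mt-Nd6 was lower (-1.30, from 42 and 10 UMIs), of 6 MHC genes H2-DMa was lower (-1.17), and of 18 splicing factors Hnrnph1 was higher (1.28). Fau was at 0.15 in members and 0.17 in comparison cells. Il1b, which encodes interleukin 1 beta, was at -1.19 in members and 1.07 in comparison cells.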

How the data were processed

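The authors aligned 10x 3′ reads to mm10 with Cell Ranger 8.0.1, the version in the file headers, and deposited the UMI counts of each gene in each barcode, not normalized. The release of the gene annotation: not given in the sources used here. Raw counts were filtered by the study's limits (more than 300 genes, under 5% mitochondrial UMIs). The study also removed doublets with scDblFinder, and its final cells were fewer than those kept here. Here doublets were called with Scrublet (scanpy 1.11.5), per library, and left in, and leaving them out was an alternative (202 higher and 436 lower genes). The members and lists were chosen with earlier results of these data known. Counts were summed per library and cell set, and ratios used a pseudocount of 10 CPM and exact conditional Poisson intervals, which carry no pseudocount. Shares have Clopper-Pearson intervals. The ratios and their intervals were tested on simulated Poisson sums with known ratios. That simulation covered neither the choice of cells nor the spread between cells. Control library depth was 4914298 UMIs and 4E-BP1–cKO depth 1769927.

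The genes named are the 12 higher and 8 lower with the largest smaller ratio, the 4 markers, the 3 of each list with the most UMIs, 5 higher and 5 lower between libraries with Eif4ebp1, and the leading ribosomal protein genes, of which a few are not reported here. Members of lists that were called, the T cell and macrophage genes of single cells and the genes of the Malat1 comparison were named after their values were seen. Near-identical copies were sought with blastn 2.17.0+ among GENCODE vM39 transcripts, over the last 300 bases of the longest transcript. Alternatives used TMM (edgeR 4.0.16) and DESeq2 1.42.0 size factors, other totals, minimums, limits and cell sets. Python 3.11.15, numpy 2.4.6, scipy 1.17.1 and pandas 2.3.3 were used.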

Additional observations from a re-analysis of the deposited data

Results flagged for a closer look

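For 10 of the 2936 compared genes the members differed from the comparison cells by more than 1.5-fold in opposite directions in the 2 libraries, with each counting interval on its own side of 0. The difference between the libraries was not tested, since each genotype is 1 library. Higher in control and lower in 4E-BP1–cKO members were Il1b, a pro-inflammatory cytokine (1.62 and -0.64 on the log2 scale), Slc11a1, an ion transporter of phagosomes (0.62 and -0.91), Dhx40 (1.07 and -0.87), Spata13 (0.68 and -0.87) and Trim8 (0.67 and -1.09). Lower in control and higher in 4E-BP1–cKO members were the chemokine gene Ccl2 (-0.68 and 0.85), Arhgap15 (-1.004 and 0.96), Hipk2, a nuclear kinase (-0.71 and 0.66), Tmpo, which encodes lamina-associated proteins (-0.87 and 1.23) and Gm17268 (-1.07 and 1.10).

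The counts behind several were small. Il1b had 110 UMIs in 12 of 47 control members and 30 in 6 of 32 4E-BP1–cKO members, and Tmpo 9 and 19 UMIs. Without the cell with the most UMIs of the gene in each set, Il1b was at 1.44 and -0.88, Ccl2 at -0.88 and 0.53 and Arhgap15 at -1.16 and 0.77. Groups were too few for a check of outlying libraries.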

How the results depend on the processing

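The percentages of members that lay outside their intervals were 2.18% (control) and 3.15% (4E-BP1–cKO) for the top 2.5% of cells, 8.195% and 13.9% for the top 10%, and 4.94% in 4E-BP1–cKO cells when the top 5% was taken within each library, by construction. The counts of genes higher and lower in members moved by over 1.5 times to 423 and 797 with a minimum of 50 UMIs, 560 and 1039 with none, 85 and 86 at 2-fold, 386 and 717 against all other cells of at least 1200 UMIs, and 37 and 31 against cells of 8% to the limit. Lower genes alone moved to 674 with CPM over all UMIs and to 291 with the top 10%. Higher genes were 31.9% of calls in the report, 17.0% with CPM over all UMIs and 40.6% with DESeq2 size factors. Between libraries, 105 higher and 139 lower were found with a minimum of 20 UMIs and 160 and 204 after thinning, which left sums of 37600 and 25600 UMIs and shared 11 of the 18 higher and 15 of the 31 lower genes of the report, and cells weighted equally gave 32 higher. The cause of the other moves was not tested.

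In the 15 alternatives of 18 that could move a ratio, 19 of the 20 leading genes kept their sign in each library, and Cxcl2 was at 1.03 and -0.03 against cells of 8% to the limit. Of the 12 higher, 9 stayed past 1.5-fold in both libraries in each, while Cxcl2, Bcl2a1d and Snrpg did not against cells of 8% to the limit. Of the 8 lower, 4 did, while Gm16337, E330020D12Rik and Cables1 fell short against those cells and Hspb1 with the top 10%. List medians were here taken over each gene's mean of the 2 libraries, so they differ from the medians per library given above. Against cells of 8% to the limit they fell from 0.896 to 0.340 for translation factors and from 1.163 to 0.687 for nuclear oxidative phosphorylation genes. For mitochondrially encoded genes they fell from 1.674 to 0.574. The medians of 7 lists changed sign in some alternative. MHC genes went from 0.009 to -0.19 with the top 2.5%, and interferon-stimulated genes from 0.172 to -0.0987, chemokine genes from 0.457 to -0.152 and mTORC1 genes from -0.367 to 0.077 against cells of 8% to the limit, identity genes from -0.339 to 0.028 against all other cells of at least 1200 UMIs, nuclear noncoding RNAs from -0.233 to 0.015 with the top 10%, and proteasome genes from 0.259 to -0.029 without cells with 3 markers of another type. The Apoe ratio, averaged over the libraries, ran from 1.56 against cells of 8% to the limit to 3.98 with the top 2.5%. Leaving out cells under 10 Malat1 UMIs or with 3 markers of another cell type was chosen after seeing the data and moved no count by 1.5 times. Also chosen then was leaving the macrophage-gene cell out of the 12 cells under 10 Malat1 UMIs. No paired analysis was possible because each genotype had 1 library, and for the same reason no replicate could be left out. Depth limits the scarce genes: Psmb1, with 22 UMIs in 4E-BP1–cKO members, had an interval of -0.04 to 1.47.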
